A study of Mus musculus with 16 samples.

Results

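Keratinocytes secrete cytokines and chemokines that alert and recruit immune cells, and 10 mouse genes of this kind were followed here by name over all 4 groups of 4 libraries: Il1a, Il1b, Il1rn, Il18, Il33, Cxcl1, Cxcl5, Cxcl14, Ccl20 and Tslp. The count table held 32989 gene identifiers, the 10 genes all had a row in it, and 9 of them were among the 19049 genes with enough counts to be tested. The cells came from hair follicle stem cell (HFSC) organoids, the 3D–3C culture in which epidermal cells of 1 mouse form a mixture of stem cells and their progeny within 2 weeks. Cultures from 4 C57BL/6J mice were left untreated or received N1-acetylspermidine (N1-AcSpd), the acetylated form of the polyamine spermidine, for 72 h, and from each the α6+ cells were sorted by CD34, into CD34− progenitors and CD34+ HFSCs. Each mouse therefore gave 1 library to each of the groups untreated CD34−, untreated CD34+, N1-AcSpd CD34− and N1-AcSpd CD34+, and is called mouse 1 to mouse 4 here. All groups share the wild-type background, the culture and the sort on integrin α6, so every value describes cultured epithelial cells and not skin.

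The IL-1 family members IL-1α, IL-1β, IL-18 and IL-33 are made without a classical secretion signal and are released by damaged or dying cells or after proteolytic processing, and the IL-1 receptor antagonist encoded by Il1rn competes with IL-1 for its receptor. Chemokines are small secreted proteins that guide leukocytes along a gradient: CXCL1 and CXCL5 attract neutrophils through CXCR2, CCL20 attracts cells that carry CCR6, and CXCL14 is made constitutively by epithelia. Thymic stromal lymphopoietin (TSLP) is an epithelial cytokine that acts on dendritic cells and lymphocytes and is well known from atopic dermatitis. In the epidermis and the hair follicle many of these genes are switched on by NF-κB, which itself lies downstream of the IL-1 receptor.

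Library totals ran from 15480075 to 29074855 unique molecular identifiers (UMIs), and 22142 to 24247 genes had at least 1 UMI. Cd34, the sort marker, was at 3.26 ± 0.319 CPM (counts scaled to the size of the library) in N1-AcSpd CD34− and 53.3 ± 7.77 CPM in N1-AcSpd CD34+ cells (SD, n = 4), although an antisense model at the same place holds nearly the same counts. Krt14, a basal keratinocyte keratin, was at 4601 CPM or more in every library. Of the 17 immune markers found in the table, 9 had at most 45 UMIs in any library and 0 in some, among them Cd3e (0 to 3), Lyz2 (0 to 1), Cd74 (0 to 2) and Ptprc (0 to 45). The other 8 were present in every library: Csf1r (69 to 136 UMIs, with total counts close to those of Hmgxb3, which overlaps it on the other strand), Itgam (43 to 131), H2-Ab1 (123 to 211), Cd14 (27 to 63), Cd68 (13 to 50), and Epcam, S100a8 and S100a9, which keratinocytes also make. Itgam overlaps the protein-coding Gm49368 on the same strand, which holds 9974 counts in all against 1229 for Itgam. The summed level of the 17 was higher in untreated CD34− (100 to 157 CPM) than in untreated CD34+ libraries (61.4 to 80.7 CPM), and this order rested on S100a8 (60.5 against 12.9 CPM) and S100a9 (23.3 against 3.45 CPM). Without these 2 the group means summed to 38.6 CPM in CD34− and 55.1 CPM in CD34+ cells, the opposite order, and without Epcam as well (18.2 against 34.5 CPM) to 20.4 and 20.6 CPM. Fibroblast markers summed to 2.89 to 11.2 CPM in untreated CD34− and 0.668 to 2.69 CPM in untreated CD34+ libraries, and the part of these cells in the results was not tested. Most of this sum was Vim, on average 4.35 of 5.41 CPM in CD34− and 0.943 of 1.43 CPM in CD34+ cells. Of the collagen genes, Col1a2 had the same order (29 against 5 UMIs over the group) and Col1a1 the opposite one (3 against 5 UMIs). In N1-AcSpd cells fibroblast markers were at 3.08 to 6.27 against 0.529 to 1.65 CPM, with Vim at 3.20 against 0.498 CPM on average. Immune markers were at 99.7 to 165 against 69.9 to 84.6 CPM there, but at 36.0 against 55.3 CPM without S100a8 and S100a9, and at 19.96 against 19.29 CPM without Epcam as well. Melanocyte markers summed to 29.7 to 31.0 CPM in untreated CD34− and 32.1 to 36.1 CPM in untreated CD34+ libraries, but Mitf and Pmel overlap other gene models. Pecam1, the one endothelial marker with counts enough to be tested, could not be read as such, because its counts differed by 1.51% in sum from those of Phkg1 on another chromosome.

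The levels of the list spanned 4 orders of magnitude, and Tslp stood far above the rest. An opposite-strand model holds nearly the same counts as Tslp, as given below, so this level may belong to either gene. UMIs were counted from 3′ tags, so a level does not scale with transcript length. The genes are set side by side with a limit, since tags counted under Tslp and Il1a may also be counted under overlapping models. Averaged over the 16 libraries, Tslp was at 511 CPM, rank 429 of all genes in the table. Cxcl1 (24.2 CPM), Cxcl14 (20.3 CPM) and Il1rn (11.4 CPM) came next. Ccl20, Il18, Il33, Il1a and Cxcl5 lay between 3.51 and 1.31 CPM, and Il1b was at 0.0182 CPM. In bulk libraries such as these, fewer expressing cells and less RNA per cell cannot be told apart.

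**Figure D1:**
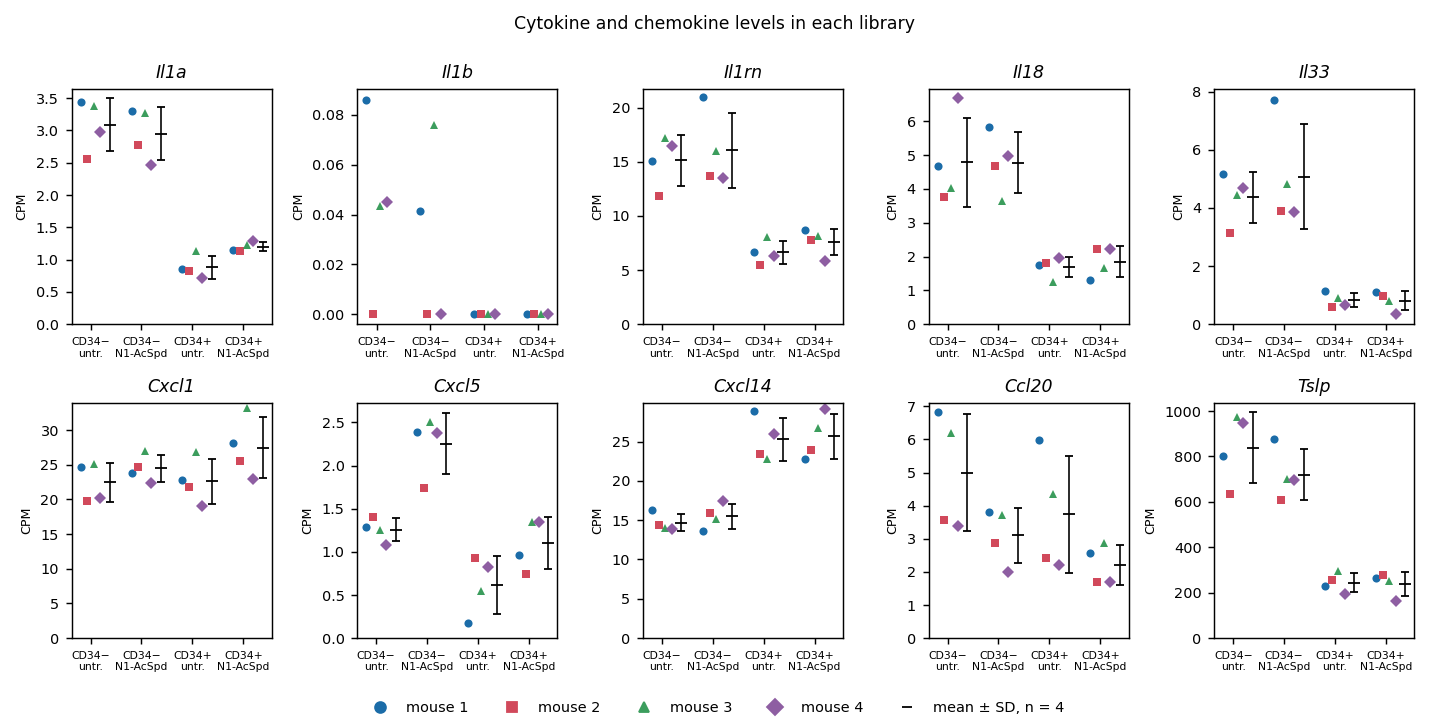
Level of each of the 10 genes in CPM (y axis, linear, starting at 0 except for a small margin in the Il1b panel) in the 4 groups, 1 point per library, with the colour and shape giving the mouse and the black bar the mean ± SD (n = 4, not drawn for Il1b). Il1a, Il1rn, Il18, Il33 and Tslp are lower in both CD34+ groups, Cxcl14 is higher there, and Ccl20 splits by mouse within every group.

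The comparison of the sorted fractions asked which of these genes separate stem cells from their progenitors. Of the 9 genes tested, 6 were lower in CD34+ than in CD34− cells without N1-AcSpd, 1 was higher and 2 did not pass the test. Over all 19049 genes 32.1% passed in this comparison, 16.1% lower and 16.1% higher. The median log2 fold change of the 9 genes was -1.19, and that of all genes tested was 0.02. With N1-AcSpd the counts were again 6 lower, 1 higher and 2 not called, against 33.3% of all genes called, of which 16.8% were lower and 16.5% higher. The median of the 9 genes was -1.07 there, beside -0.01 for all genes.

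Il1a encodes IL-1α, the alarm cytokine that keratinocytes store, and lies at chr2:129299610-129309972 (GRCm38, minus strand). In untreated CD34− cells of mice 1 to 4 it was at 3.44, 2.56, 3.38 and 2.98 CPM, and in untreated CD34+ cells at 0.854, 0.823, 1.14 and 0.720 CPM. All CD34+ libraries lay below all CD34− libraries. The level was 3.49-fold lower in CD34+ cells (log2 fold change -1.80, SE 0.15, adjusted p = 1.51e-06), and lower in 4 of 4 mice. Under N1-AcSpd the CD34− libraries held 3.30, 2.77, 3.27 and 2.46 CPM and the CD34+ libraries 1.15, 1.14, 1.23 and 1.29 CPM, a 2.45-fold lower level (log2 fold change -1.29, SE 0.15, adjusted p = 1.50e-05). An opposite-strand model, Gm14023, overlaps Il1a and holds 732 counts where Il1a holds 726, with the same number in 10 libraries. The sources used here do not state whether counting used strand, so the 2 cannot be told apart.

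Il1b, the second IL-1 agonist, was next to absent. Untreated CD34− cells held 2, 0, 1 and 1 UMIs and N1-AcSpd CD34− cells 1, 0, 2 and 0 UMIs, and none was found in the 8 CD34+ libraries. A count of 0 over the 4 libraries of a group allows a level of up to 0.0407 CPM in untreated CD34+ and 0.0386 CPM in N1-AcSpd CD34+ cells, counting error only. With a mean of 0.438 UMIs per library it was not tested, and no fold is given, since 4 and 3 UMIs in the CD34− groups are too few to compare with 0.

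Il1rn, the receptor antagonist, was the most abundant IL-1 family member of the list. It lies at chr2:24336853-24351494 (plus strand). Untreated CD34− libraries held 15.1, 11.8, 17.2 and 16.4 CPM and untreated CD34+ libraries 6.72, 5.49, 8.08 and 6.27 CPM. The groups did not overlap, and the level was 2.28-fold lower in CD34+ cells (log2 fold change -1.19, SE 0.17, adjusted p = 0.000146). With N1-AcSpd the values were 20.9, 13.7, 16.0 and 13.5 CPM in CD34− and 8.69, 7.80, 8.10 and 5.87 CPM in CD34+ cells, again without overlap and 2.10-fold lower (adjusted p = 0.00027).

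IL-18 is cleaved by caspase-1 before it signals, and its gene Il18 lies at chr9:50554827-50581840 (plus strand). Its level was 4.69, 3.77, 4.03 and 6.68 CPM in untreated CD34− and 1.76, 1.81, 1.25 and 1.95 CPM in untreated CD34+ cells. This was 2.83-fold lower in CD34+ cells (95% interval of the log2 fold change -1.99 to -1.01, adjusted p = 0.000209). Among N1-AcSpd libraries it was 2.59-fold lower (log2 fold change -1.37, SE 0.23, adjusted p = 0.000324), with CD34− libraries from 3.65 to 5.82 CPM and CD34+ libraries from 1.30 to 2.23 CPM.

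Il33 showed the largest fitted difference of the 9 tested genes in both conditions. It encodes a nuclear alarmin and lies at chr19:29925114-29960718 (plus strand). In untreated cells it fell from 5.16, 3.13, 4.46 and 4.69 CPM in CD34− to 1.14, 0.603, 0.922 and 0.668 CPM in CD34+ libraries. The difference was 5.23-fold (log2 fold change -2.39, SE 0.33, adjusted p = 9.31e-05). In N1-AcSpd cells it was 6.16-fold (log2 fold change -2.62, SE 0.33, adjusted p = 3.39e-05), from 7.72, 3.90, 4.83 and 3.86 CPM to 1.11, 0.968, 0.798 and 0.352 CPM. The lowest CD34+ library, that of mouse 4 under N1-AcSpd, rested on 6 UMIs. The 95% intervals of Il33 and Il1a overlapped (log2 -3.09 to -1.68 and -2.13 to -1.47 in untreated cells), and a difference between the 2 genes was not tested.

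Tslp lies at chr18:32815383-32819797 (plus strand). Its 4 untreated CD34− libraries held 803, 633, 972 and 946 CPM and its untreated CD34+ libraries 230, 258, 297 and 195 CPM, without overlap. That was a 3.43-fold lower level in CD34+ cells (log2 fold change -1.78, SE 0.19, adjusted p = 1.00e-05). N1-AcSpd libraries gave 876, 607, 701 and 698 CPM in CD34− and 267, 279, 250 and 163 CPM in CD34+ cells, a 3.01-fold lower level (adjusted p = 2.19e-05). Tslp lies within the span of the lincRNA 4930455D15Rik on the opposite strand. That model holds 182697 counts against 182662 for Tslp, with the same number in 14 libraries. The high level may therefore belong to either gene, which cannot be told apart without knowing the strand of counting.

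Cxcl14 was the one tested gene of the list that was higher in HFSCs. It lies at chr13:56288643-56296551 (minus strand). Untreated CD34− cells held 16.3, 14.4, 14.0 and 13.9 CPM, and untreated CD34+ cells 28.9, 23.4, 22.8 and 26.0 CPM. The 4 CD34+ libraries were all above the 4 CD34− libraries, 1.72-fold (log2 fold change 0.79, SE 0.10, adjusted p = 4.30e-05). With N1-AcSpd the levels were 13.6, 15.9, 15.2 and 17.4 CPM in CD34− and 22.8, 23.9, 26.8 and 29.1 CPM in CD34+ cells, 1.65-fold higher (log2 fold change 0.73, SE 0.10, adjusted p = 6.94e-05).

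Cxcl5, a neutrophil chemokine gene at chr5:90759360-90761624 (plus strand), was called lower in CD34+ cells but on few counts. Its libraries held 1.29, 1.41, 1.26 and 1.08 CPM in untreated CD34− and 0.171, 0.933, 0.542 and 0.822 CPM in untreated CD34+ cells, where mouse 1 contributed 3 UMIs. The fitted level was 2.02-fold lower (log2 fold change -1.02, SE 0.36, adjusted p = 0.0426), and under N1-AcSpd 2.05-fold lower (log2 fold change -1.03, SE 0.34, adjusted p = 0.0314). These calls stood close to the threshold. In 20 runs that each left out 1 library or 1 mouse, 13 lost the call in untreated cells (log2 fold change -1.25 to -0.70) and 8 lost it in N1-AcSpd cells (-1.12 to -0.89). With the mouse as a block the adjusted p was 0.0535 in untreated and 0.0454 in N1-AcSpd cells.

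Cxcl1 and Ccl20 did not pass the test between the fractions. Cxcl1, at chr5:90891241-90893115 (plus strand), was at 24.7, 19.8, 25.1 and 20.2 CPM in untreated CD34− and 22.8, 21.7, 26.9 and 19.1 CPM in untreated CD34+ cells. The ranges overlapped and the log2 fold change was 0.01 (95% interval -0.26 to 0.28). With N1-AcSpd it was 0.16 (-0.11 to 0.44, adjusted p = 0.371). Ccl20, at chr1:83116766-83119167 (plus strand), was lower in the CD34+ library of all 4 mice in both conditions, by a log2 fold change of -0.43 (-1.16 to 0.31, adjusted p = 0.403) and -0.48 (-1.24 to 0.27, adjusted p = 0.338). Its levels also differed by mouse. In the fit with the mouse as a block Ccl20 was called lower in CD34+ cells in both conditions (log2 fold change -0.46, adjusted p = 0.0233, and -0.49, adjusted p = 0.018). That fit called 6484 of all 19049 genes in untreated and 6647 in N1-AcSpd cells.

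**Figure D2:**
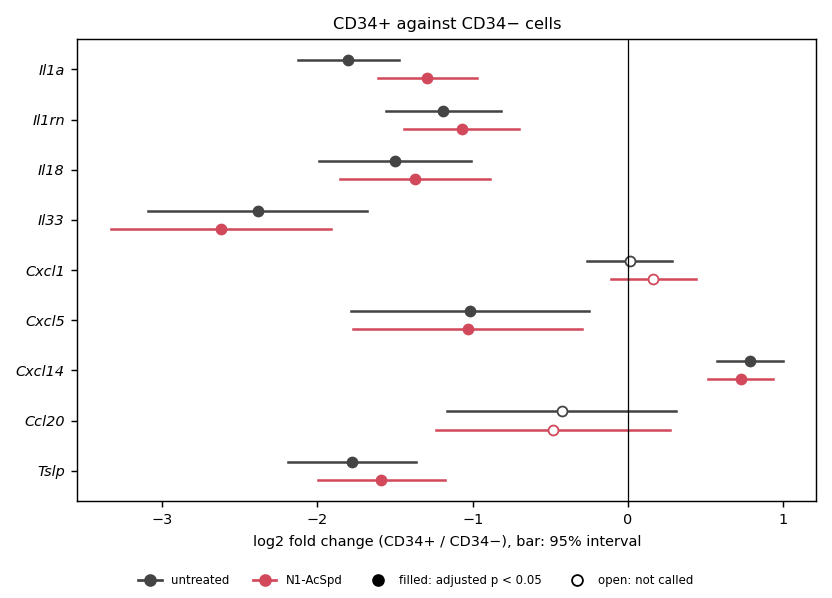
Log2 fold change of CD34+ against CD34− cells (x axis) for the 9 tested genes, in untreated cells (dark) and N1-AcSpd cells (red), with 95% intervals as bars and filled points for adjusted p under 0.05. Il33 lies farthest to the left (-2.39 and -2.62), Cxcl14 alone lies to the right of 0 with a filled point (0.79 and 0.73), and Cxcl1 and Ccl20 are open.

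The other genes of the IL-1 pathway did not all follow the ligands. The 4 further IL-1 family ligands that could be tested, Il1f5, Il1f6, Il1f8 and Il1f9, were all lower in CD34+ cells in both conditions. Their median log2 fold change was -2.43 in untreated cells. This was 100% of the list, beside 16.1% of all genes called lower without N1-AcSpd and 16.8% with it. Il1f5 and Il1f8, which encode the IL-36 receptor antagonist and IL-36β, fell from 9.47 to 1.41 CPM (log2 fold change -2.74, SE 0.31) and from 6.81 to 1.56 CPM (log2 fold change -2.13, SE 0.25). Il1f9, which encodes IL-36γ, fell from 20.9 to 7.73 CPM (log2 fold change -1.43, SE 0.23).

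The inflammasome and IL-1 processing genes were split. Of 8 tested, 3 were higher and 2 lower in untreated CD34+ cells (62.5% called, beside 32.1% of all genes), and 5 were higher and 2 lower with N1-AcSpd (87.5%, beside 33.3%). Casp1, the protease that matures IL-1β and IL-18, was 1.88-fold higher in untreated CD34+ cells (5.54 to 10.4 CPM, adjusted p = 0.000145), and Pycard, the inflammasome adaptor, was 1.62-fold higher (51.9 to 84.1 CPM, adjusted p = 0.00127). Gsdma, an epidermal gasdermin, was 7.36-fold lower (8.45 to 1.15 CPM, adjusted p = 1.49e-05). The same 3 genes kept these directions with N1-AcSpd, at 2.24-fold higher, 2.08-fold higher and 7.43-fold lower.

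Of 9 receptors and decoys tested, 1 was higher and 1 lower in untreated CD34+ cells (22.2% called), and 2 were higher and 1 lower with N1-AcSpd (33.3%), beside 32.1% and 33.3% of all genes. Cxcr2, the receptor of CXCL1 and CXCL5, was 1.89-fold lower in untreated CD34+ cells (202 to 107 CPM, adjusted p = 2.66e-06). Cxcr2 is known as a receptor of neutrophils, and whether tags of other genes were counted under its name was not tested, so these CPM may not be the level of the receptor. Il18bp, the soluble IL-18 decoy, was 1.27-fold higher (adjusted p = 0.0405), a call that 11 of the 20 leave-out runs lost (log2 fold change 0.24 to 0.40), and its counts lie under an overlapping gene, Numa1. This call was also lost in 5 of the 9 other settings, among them DESeq2 (log2 fold change 0.33, adjusted p = 0.0871). With N1-AcSpd Il18bp was 1.57-fold higher (adjusted p = 0.00086). The IL-33 receptor gene Il1rl1 had 0 to 9 UMIs in a library and was not tested.

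Of 25 genes of IL-1 receptor signalling and NF-κB, 2 were higher and 5 lower in untreated CD34+ cells, and 6 were higher and 7 lower with N1-AcSpd, with medians of 0.08 and 0.09. These were 28% and 52% of the list, beside 32.1% and 33.3% of all genes. Irak1, a kinase of the receptor complex, was 1.63-fold lower (183 to 112 CPM, adjusted p = 1.75e-06), and Zc3h12a, an RNase that degrades cytokine mRNAs, was 1.69-fold lower (8.79 to 5.19 CPM, adjusted p = 0.000304). Ikbkg, the regulatory subunit of the IκB kinase, was 1.36-fold lower, but G6pdx overlaps it on the opposite strand and the smaller of the 2 counts is 77.3% of the larger. Relb was 1.43-fold higher with N1-AcSpd (6.58 to 9.40 CPM, adjusted p = 0.00056).

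Among 19 other epithelial cytokines and chemokines, 4 were higher and 3 lower in untreated CD34+ cells (36.8% called, beside 32.1% of all genes), and 5 were higher and 4 lower with N1-AcSpd (47.4%, beside 33.3%). The monocyte chemokine genes Ccl7 and Ccl2 were 3.01-fold (6.93 to 20.9 CPM, adjusted p = 1.66e-06) and 2.93-fold higher (21.6 to 63.4 CPM, adjusted p = 1.73e-05). An opposite-strand model, Gm17268, holds the same counts as Ccl2 in every library. Il24, an IL-10 family cytokine gene, was 3.92-fold lower (20.2 to 5.15 CPM, adjusted p = 7.46e-07). In N1-AcSpd cells the differences of these genes were 4.36-fold and 4.19-fold higher and 4.08-fold lower.

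**Figure D3:**
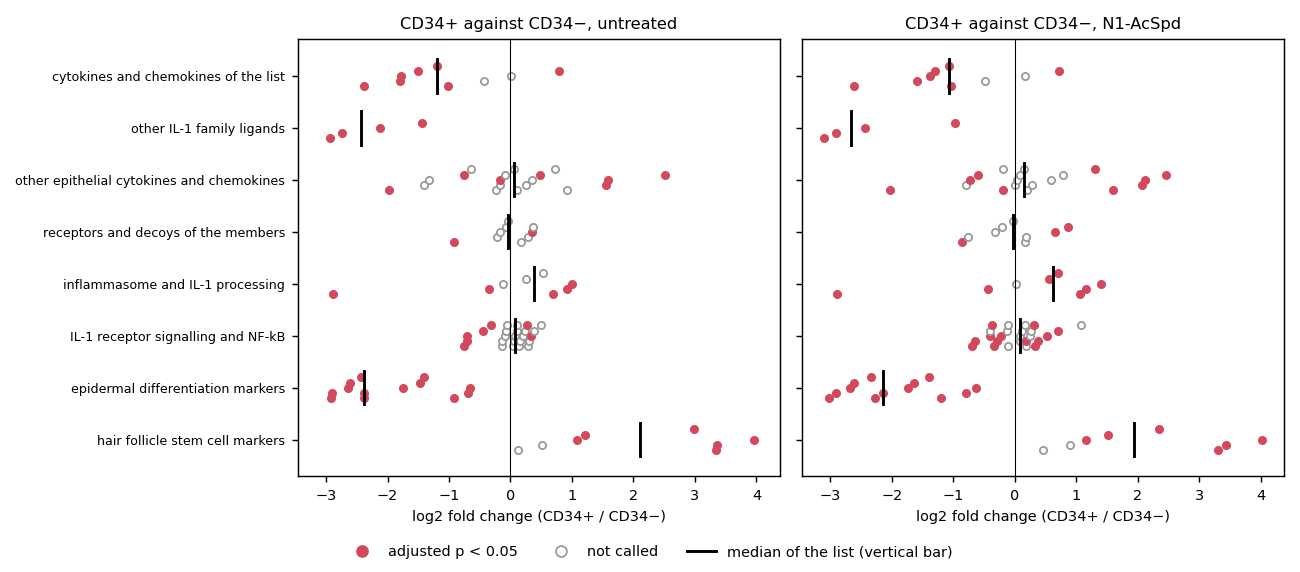
Log2 fold change of CD34+ against CD34− cells (x axis) for every tested gene of 8 gene lists, untreated on the left and N1-AcSpd on the right, with red points for adjusted p under 0.05, open points for genes not called and a vertical bar at the median of the list. The IL-1 family ligands and the epidermal differentiation markers lie to the left of 0, while the signalling and receptor lists are centred near 0.

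For each member of sufficient count the 2 genes with the most similar pattern were picked. By Pearson correlation of log2 CPM over the 16 libraries, among 9718 genes, Il1rn was most like Plbd1 (r = 0.988) and Sprr2d (r = 0.984), Tslp was most like Ly6g6c (r = 0.985) and Sprr2d (r = 0.983), and Il33 was most like Plbd1 and Mal2 (both r = 0.985). For Il18 these were Hebp2 (r = 0.952) and Dmkn (r = 0.943), and for Cxcl14 they were Fech (r = 0.980) and Mpzl1 (r = 0.978). Cxcl1 was nearest to Nrf1 (r = 0.904) and Clic1 (r = 0.869), and Ccl20 to the pseudogene Rpl13a-ps1 (r = 0.946) and Rpl22l1 (r = 0.886). The libraries fall into 2 fractions and share mice and depth, so these values include the distance between the fractions. Of the epidermal differentiation markers, 13 of 13, from Krt10 to Flg, were called lower in CD34+ cells in both conditions. The share of all genes called lower was 16.1% without N1-AcSpd and 16.8% with it. Summed, these markers were at 1795 to 2442 CPM in untreated CD34− and 446 to 503 CPM in untreated CD34+ libraries. Among them, Flg (7722 counts in all) overlaps the pseudogene Rplp0-ps1 (5703) on the same strand. Sbsn (92947) overlaps Tmem147os (93183) on the same strand with nearly the same counts, so the levels of Flg and Sbsn may not be theirs alone. Of the 36 pairs of members, taken as deviations from the group means over the 16 libraries, Il1rn and Il33 had the highest correlation (r = 0.864), followed by Il1rn and Tslp (r = 0.820) and by Cxcl1 and Ccl20 (r = 0.778).

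The second question was whether N1-AcSpd changed these genes. None of the 9 tested genes passed the edgeR test in CD34− cells, in CD34+ cells, in the mean of both or in the difference between them. Over all genes the test called 0.614% in CD34− cells (0.373% higher, 0.241% lower), 0.325% in CD34+ cells (0.189% higher, 0.136% lower), 4.87% in the mean (2.7% higher, 2.17% lower) and 0% in the difference. At an unadjusted p under 0.05 there were 1, 2, 3 and 1 of the 9 genes, beside 13.6%, 13.2%, 20.8% and 4.19% of all genes. DESeq2 also called none of those to which it gave an adjusted p. It gave none to Il1a, Il18, Il33, Cxcl5 and Ccl20 in the single fractions, or to Cxcl5 in the mean. The fit with the mouse as a block called Ccl20 lower and Cxcl1 higher. Over all 19049 genes that fit called more than the fit without the block: 351 against 117 in CD34− cells, 152 against 62 in CD34+ cells and 1551 against 928 in the mean.

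Ccl20 had the clearest pattern by mouse. In the order of mice 1 to 4, untreated CD34− cells held 6.84, 3.58, 6.19 and 3.38 CPM, and the N1-AcSpd CD34− libraries of the same mice 3.80, 2.88, 3.73 and 2.01 CPM. Untreated CD34+ libraries held 5.98, 2.41, 4.34 and 2.21 CPM, and their N1-AcSpd partners 2.56, 1.71, 2.88 and 1.70 CPM. Mice 1 and 3 were above mice 2 and 4 in every group, and all 8 N1-AcSpd libraries were below the untreated library of their own mouse, while the groups overlapped. Without the block the log2 fold change was -0.69 in CD34− (adjusted p = 0.4) and -0.75 in CD34+ cells (adjusted p = 0.386), and -0.72 for the mean (SE 0.25, unadjusted p = 0.0113, adjusted p = 0.107). With the mouse as a block it was -0.66 in CD34− (adjusted p = 0.0385), -0.69 in CD34+ (adjusted p = 0.0572) and -0.67 for the mean (adjusted p = 0.00409).

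Cxcl1 was higher with N1-AcSpd in 7 of 8 pairs of libraries. CD34− cells went from 24.7, 19.8, 25.1 and 20.2 CPM to 23.8, 24.7, 27.0 and 22.4 CPM, where mouse 1 alone was lower. CD34+ cells went from 22.8, 21.7, 26.9 and 19.1 CPM to 28.1, 25.5, 33.2 and 23.0 CPM. The mean log2 fold change was 0.20 (95% interval 0.01 to 0.39, adjusted p = 0.214), and with the mouse as a block 0.20 (adjusted p = 0.0164).

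Ccl20 and Cxcl1 differed between the mice in the same block fit that called them, so this is no separate evidence beside those calls. In the block fit, a test of any difference between the 4 mice called Ccl20 (adjusted p = 0.0117) and Cxcl1 (adjusted p = 0.0294) and none of the other 7 genes, beside 0.882% of all genes. Averaged over the 4 groups, mice 1 to 4 held 4.79, 2.64, 4.29 and 2.33 CPM of Ccl20 and 24.8, 22.9, 28.1 and 21.1 CPM of Cxcl1. Each mouse gave its own cultures, so a difference between animals and between cultures cannot be told apart.

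**Figure D4:**
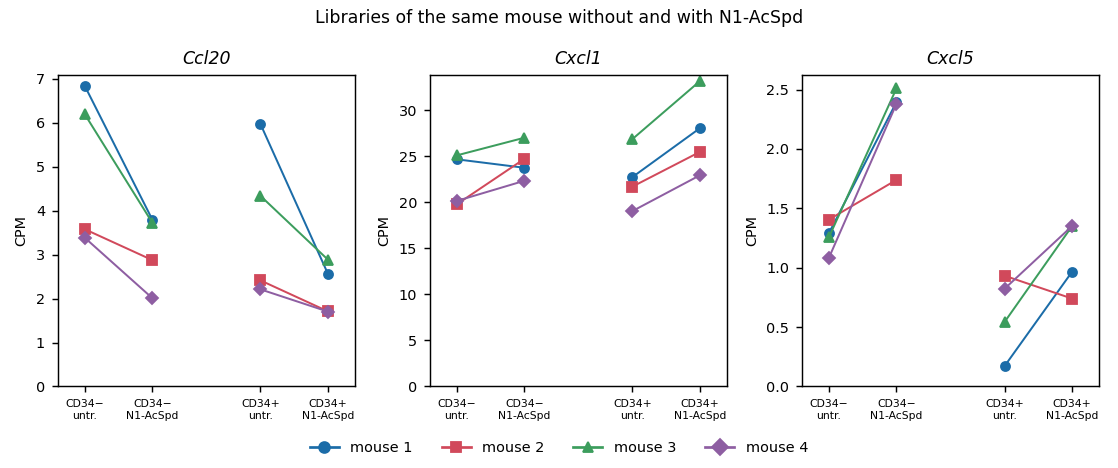
Level in CPM (y axis, from 0) of Ccl20, Cxcl1 and Cxcl5 in untreated and N1-AcSpd libraries, with a line joining the libraries of 1 mouse within a cell fraction. The 8 lines of Ccl20 all go down, 7 of 8 of Cxcl1 go up, and 7 of 8 of Cxcl5 go up with mouse 2 in CD34+ cells as the exception.

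Cxcl5 had the largest fitted N1-AcSpd difference upward. CD34− libraries went from 1.29, 1.41, 1.26 and 1.08 CPM to 2.39, 1.74, 2.51 and 2.38 CPM, without overlap, and CD34+ libraries from 0.171, 0.933, 0.542 and 0.822 CPM to 0.966, 0.740, 1.35 and 1.35 CPM. The mean was 1.78-fold (log2 fold change 0.83, 95% interval 0.30 to 1.36, unadjusted p = 0.00472), which did not pass after adjustment (adjusted p = 0.069, and 0.0806 with the mouse as a block). Leaving out the untreated CD34+ library of mouse 1 (log2 fold change 0.68, adjusted p = 0.0469) or of mouse 2 (0.96, adjusted p = 0.047) brought the mean past the threshold.

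For Il1rn, Il18, Il33, Cxcl14 and Tslp the fitted N1-AcSpd values were between -0.22 and 0.22 on the log2 scale in both fractions. Their precision differed. The interval was narrowest for Cxcl14 (-0.13 to 0.29 in CD34−, -0.19 to 0.23 in CD34+) and widest for Il33 (-0.42 to 0.85 and -0.76 to 0.72), so changes of Il33 within these bounds could not be told from the spread between libraries. Il1a was at -0.07 in CD34− and 0.44 in CD34+ cells, where it was higher in 4 of 4 mice (0.884 ± 0.179 against 1.20 ± 0.0714 CPM, SD, n = 4, adjusted p = 0.401). The difference between these 2 effects was 0.51 (95% interval 0.02 to 1.00, unadjusted p = 0.0437, adjusted p = 1), and across all genes the interaction had 799 genes at an unadjusted p under 0.05 and 0 after adjustment by edgeR, beside 72 by DESeq2.

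**Figure D5:**
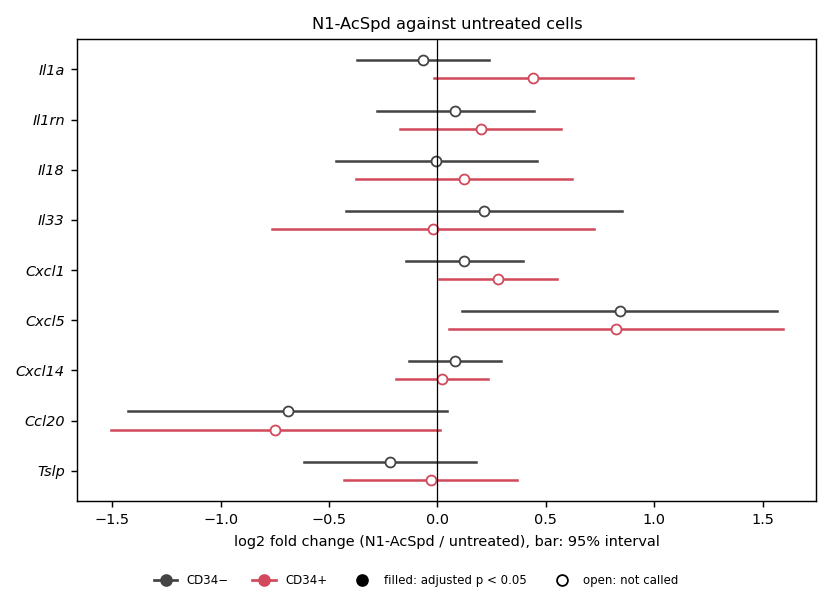
Log2 fold change of N1-AcSpd against untreated cells (x axis) for the 9 tested genes, in CD34− (dark) and CD34+ cells (red), with 95% intervals as bars. All points are open, since none passed adjusted p under 0.05. Cxcl5 (0.84 and 0.82) and Ccl20 (-0.69 and -0.75) lie farthest from 0.

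In the pathway lists few genes passed under N1-AcSpd, as over all genes, where 0.614% passed in CD34− cells, 0.325% in CD34+ cells and 4.87% in the mean. Of 9 receptors and decoys 1 passed in CD34+ cells and 2 in the mean. Of 25 signalling genes 1 passed in each fraction and 2 in the mean. Ikbkg, with the overlap given above, was 1.19-fold higher in CD34− (adjusted p = 0.0389, lost in 14 of 20 leave-out runs at log2 0.22 to 0.27) and 1.25-fold higher in CD34+ cells (adjusted p = 0.0116, lost in 5 runs at 0.30 to 0.34). Of the 9 other settings, 3 lost the call in CD34− and 1 in CD34+ cells. For the mean effect Ikbkg, Irak1 (1.13-fold, adjusted p = 0.0376, lost in 14 runs at 0.15 to 0.19) and Cxcr2 (1.18-fold, adjusted p = 0.033, lost in 12 runs at 0.21 to 0.26, with the doubt about its counts given above) were higher. Irak1 and Cxcr2 also lost the call without a low-count filter (log2 0.17 and 0.24). Ccl27a, a skin chemokine gene that overlaps Il11ra1, was lower (log2 fold change -0.58, adjusted p = 0.0146, lost without mouse 1, 2 or 4 at -0.51, -0.59 and -0.59). The decoy receptor gene Il1r2, below the count minimum for naming and picked after its values were seen, rose from 0.718 ± 0.191 to 2.08 ± 0.456 CPM in CD34+ cells (SD, n = 4, adjusted p = 0.0482) and was 2.42-fold higher in the mean (adjusted p = 0.00524). In CD34+ cells its call was lost in 20 of 29 alternatives, 16 of them leave-out runs. No further IL-1 family ligand (4 tested) and no inflammasome gene (8 tested) passed in any N1-AcSpd comparison. At the shares over all genes, lists this small can easily hold no call, so nothing about them follows.

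The promoter letters of 3 members are shown, Cxcl1 and Ccl20 because they shared the difference between mice, and Il1a as a gene that was lower in CD34+ cells. Each run is the 250 bases before the annotated start (RefSeq, GRCm38.p6) in the direction of transcription, at chr5:90890995-90891244 (plus strand) for Cxcl1, chr1:83116516-83116765 (plus strand) for Ccl20 and chr2:129309973-129310222 (minus strand) for Il1a. Capitals mark matches to the NF-κB motif in Cxcl1 and Ccl20, and to TATAAA and the AP-1 motif TGANTCA in Il1a.
Cxcl1: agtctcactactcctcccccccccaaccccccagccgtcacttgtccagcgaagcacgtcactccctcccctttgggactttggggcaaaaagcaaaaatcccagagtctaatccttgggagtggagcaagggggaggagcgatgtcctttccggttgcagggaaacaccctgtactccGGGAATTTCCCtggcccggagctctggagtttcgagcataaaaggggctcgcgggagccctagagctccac
Ccl20: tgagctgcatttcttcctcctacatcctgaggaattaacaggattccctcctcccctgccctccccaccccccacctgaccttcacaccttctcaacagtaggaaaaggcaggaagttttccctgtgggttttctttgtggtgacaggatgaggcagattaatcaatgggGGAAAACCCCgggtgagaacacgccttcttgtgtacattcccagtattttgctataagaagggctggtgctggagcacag
Il1a: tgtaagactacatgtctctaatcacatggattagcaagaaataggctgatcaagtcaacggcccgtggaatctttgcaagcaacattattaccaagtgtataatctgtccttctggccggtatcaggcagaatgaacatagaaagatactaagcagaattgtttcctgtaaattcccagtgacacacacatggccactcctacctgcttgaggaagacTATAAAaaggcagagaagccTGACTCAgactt
The table of promoters held 11 starts of 8 members and none for Cxcl5 or Tslp. Both strands were searched. The NF-κB motif was found in Cxcl1, starting 71 bases before the start on both strands with 1 base of offset, and in Ccl20, 80 bases before it, and in no other member, while 7.25% of all 32851 starts held it. TGANTCA was found in Il1a (12 bases before the start) and at 1 of the starts of Il1rn (141 bases before), and 6.75% of all starts held it. TATAAA stood before Il1a (32 bases), Il1b (31 bases), Il18 (175 bases, on the other strand) and both starts of Il33 (203 and 29 bases), beside 12.4% of all starts. The C/EBP motif TTGCNNAA was found at 1 start of Il33 and the STAT motif TTCNNNGAA before Cxcl14, with 9.56% and 7.02% of all starts. These are matches of letters within this window and no measure of binding.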

How the data were processed

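The 16 libraries were 3′ RNA sequencing libraries with a molecular identifier on each tag. Per the study's methods the authors separated reads with FLEXBAR, mapped them to mm10 with Kallisto (0.45.0 in the submitters' processing notes), assigned them with BEDTools and counted unique tags per gene in R; the strand setting is not given in the sources used here. The deposited values are these raw counts, with no normalization, and 156050 empty cells were read as 0. Groups and mice came from the labels. Symbols and positions came from GENCODE M21 (GRCm38), in which 62 identifiers with 0.116% of counts had no entry.

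Genes averaging 5 or more counts (19049) entered edgeR 4.0.16 (quasi-likelihood, TMM, R 4.3.3) on all 16 libraries with 1 mean per group, and p-values were adjusted by Benjamini-Hochberg over all of them. A gene was called at an adjusted p under 0.05. Standard errors and 95% intervals were derived from the fold change and its p. CPM were taken on the TMM-scaled totals. Depth limits low genes, and limits for a count of 0 (3 counts over a group) cover counting error only.

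Same-numbered libraries came from the same animal, so a fit with the mouse as a block was run as an alternative. The correlation of deviations from group means over genes averaged 0.0133 in 24 pairs of the same mouse (-0.0689 to 0.0858). In 72 pairs of different mice it averaged -0.00443 (-0.0806 to 0.119). No libraries of a group were copies of each other (chi-square per degree of freedom at least 25.4). Other alternatives were DESeq2 1.42.0 and its size factors, library totals, filterByExpr, no low-count filter, only the groups compared, thinning to 15480075 UMIs, leaving out each library or mouse, and, added after seeing the data, leaving out the overlapping models and testing the difference between mice. Named genes were the 10 members, up to 3 called genes per pathway list and comparison with the smallest p among genes averaging 50 counts or more, and the 2 genes most correlated with each member of that count. The members and lists were chosen with earlier results of these data known. The edgeR test was also run on simulated counts that held no difference between mice, so that run cannot speak to the pairing by mouse.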

Additional observations from a re-analysis of the deposited data

Results flagged for a closer look

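Cxcl5 in N1-AcSpd CD34− cells had 1 library far from the others: mouse 2 was at 1.74 CPM, while the other 3 mice were between 2.38 and 2.51 CPM. The gap to the nearest library was 0.831 of the range of the group, above Dixon's critical value for 4 samples. Such a gap was looked for in 38 groups of 4 libraries and found in 1. Chance gives it in about 1 of 20 groups.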

How the results depend on the processing

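With the mouse as a block, 1 gene of the list (Ccl20) was called lower in the N1-AcSpd effect in CD34− cells, and for the mean effect 1 was called higher (Cxcl1) and 1 lower (Ccl20), against 0 each without it. Over all 19049 genes the block called 351 against 117 in CD34− cells and 1551 against 928 in the mean. The block also called Ccl20 between the fractions and lost Cxcl5 in untreated cells (adjusted p = 0.0535), and it changed no other call of a named gene. Leaving out libraries or mice gave 0 to 1 genes called higher in the mean effect. Il1a, Il1rn, Il18, Il33, Cxcl14 and Tslp kept direction and call between the fractions under all 29 alternatives. Cxcl5 also lost its calls with library totals (-0.90 untreated, -0.92 N1-AcSpd), without a low-count filter (-1.02, -1.03) and, untreated only, with only the groups compared (-1.02). Library totals moved the median of all genes to 0.14 and 0.11 between the fractions. Of 1537 values of the list recomputed, 69 changed sign, none of them a called value. These were Cxcl1 between untreated fractions (-0.00901 with DESeq2 size factors, -0.0114 with DESeq2, -0.0337 thinned, -0.0943 to 0.0759 over leave-out runs); Il18 under N1-AcSpd in CD34− cells (0.000968 with library totals, 0.00899 with the block, -0.12 to 0.20) and in the mean (-0.00248 thinned, -0.0200 to 0.16); and the Cxcl5 interaction (0.0195 with the block, -0.32 to 0.25). Over leave-out runs alone, the interaction ranged from -0.13 to 0.0218 for Cxcl14, -0.25 to 0.26 for Ccl20, -0.43 to 0.0356 for Il33 and -0.0839 to 0.41 for Il18. In CD34− cells the N1-AcSpd value ranged from -0.0737 to 0.20 for Il1rn, -0.0582 to 0.36 for Il33, -0.15 to 0.00935 for Il1a and -0.00386 to 0.19 for Cxcl14. In CD34+ cells it ranged from -0.23 to 0.22 for Il33, -0.0456 to 0.14 for Cxcl14 and -0.12 to 0.12 for Tslp, and in the mean from -0.0404 to 0.24 for Il33 and -0.0177 to 0.17 for Cxcl14. Over all genes, N1-AcSpd calls were 117 in CD34−, 62 in CD34+ and 928 in the mean. They became 35, 35 and 445 without a low-count filter, 351, 152 and 1551 with the block and 558, 423 and 1585 with DESeq2. With only the groups compared they were 0 and 23, and 75 in CD34− after thinning. The cause was not tested.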
